A study of Mus musculus with 96 samples.

Results

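Transcripts of single C10 cells that were low in mitotic genes were compared between cells exposed to RO-3306 and cells with no compound. C10 is a mouse lung line, labelled as alveolar type II epithelium, and each of the 96 libraries (48 per group) was made from 1 sorted cell. The labels give RO-3306 at 10 nM for 36 h, and the controls received no treatment. No other allele or agent is named for either group, and the labels name no culture, so each group is 1 sample of the line and nothing here measures variation between cultures. Libraries under 50000 counts, or in which fewer than 1000 genes had a count, were set aside, which left 29 control and 37 RO-3306 cells. The members were the kept cells whose mitotic score, the summed CPM (counts scaled to a library total of 1000000) of Ccnb1, Ccnb2, Cdc20, Plk1, Aurka, Cenpf, Top2a, Tpx2, Hmmr and Ube2c, lay below the median over all 66 kept cells. They numbered 33, of which 20 were control cells and 13 were RO-3306 cells.

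The 10 score genes are switched on late in the cell cycle, when a cell prepares for and passes through mitosis. CDK1, bound to cyclin B, is the kinase that drives mitotic entry, and RO-3306 is sold as an inhibitor of it. Whether CDK1 was inhibited here was not measured. The comparison asks how treated and untreated cells differ when these transcripts are low. No phase was assigned to single cells.

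The threshold was 1916 CPM. Just inside it lay 2 RO-3306 cells at 1866 and 1869 CPM, and just outside it lay an RO-3306 cell at 1963 CPM and a control cell at 1993 CPM. Of the kept control cells 69.0% were mitotic-low (exact binomial 95% interval 49.2% to 84.7%), against 35.1% of the RO-3306 cells (20.2% to 52.5%). These intervals take cells as independent draws, so they hold no variation between cultures and do not test the treatment. The threshold is the median over both groups together, so the shares depend on each other and are a description. The score itself was used by the rule, so its values are a description. Control mitotic-low cells held 0 CPM at the lowest, 900.4 at the median and 1657 at the highest, and RO-3306 mitotic-low cells held 5.82, 688 and 1869 CPM. The ranges overlap, with 2 RO-3306 cells above every control cell, and the lower quartile was 575 CPM for control cells but 78.8 CPM for treated cells.

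**Figure D1:**
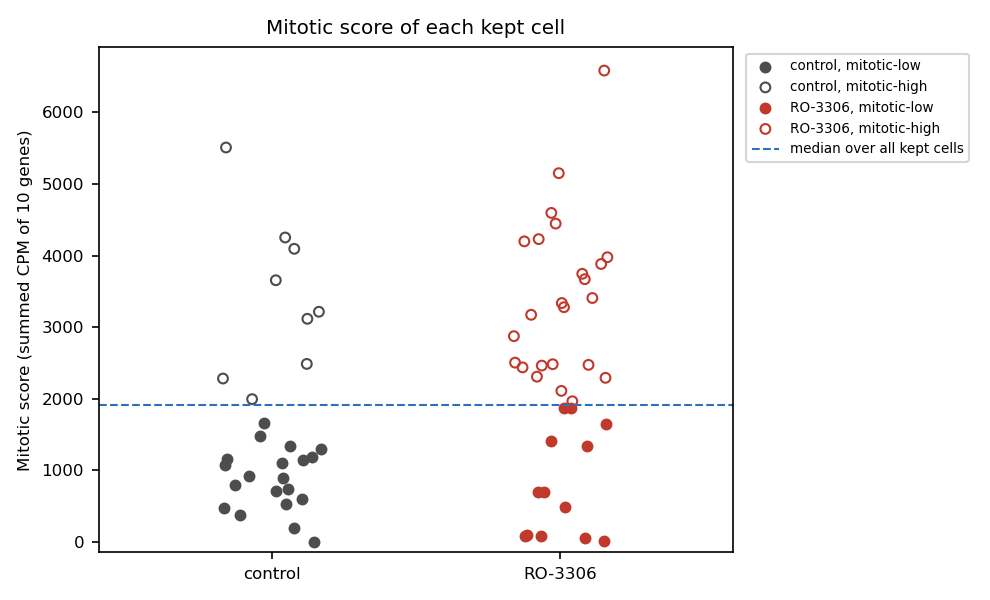
Mitotic score in summed CPM (y axis) of each kept cell, by group (x axis). Filled points are mitotic-low cells, open points mitotic-high cells, and the dashed line is the median over all kept cells, 1916 CPM. The 20 control and 13 RO-3306 cells below the line are those compared.

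Total counts per mitotic-low cell ranged from 59979 to 5580370 in control cells and from 295005 to 5321880 in RO-3306 cells, with medians of 1736670 and 1868410. The median cell had a count for 4640.5 genes in control and 6500 genes in RO-3306. After each cell was thinned to 639000 reads the medians were 4530.5 genes (16 control cells) and 6169 genes (11 RO-3306 cells), so the gap in detected genes was present at equal depth. Shallower cells, 4 control and 2 RO-3306, were left out of the thinned values. Over 14481 genes the median correlation between 2 thinned cells was 0.509 among control cells (120 pairs), 0.635 among RO-3306 cells (55 pairs) and 0.545 between the groups (176 pairs). These pairs share cells and are given as a description.

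Several libraries stood apart. The RO-3306 cell A11 had 18.1% of its counts from mitochondrially encoded genes and the RO-3306 cell B3 had 56.0%, against 1.34% to 4.71% in control cells. A11 also differed from the other RO-3306 cells in the genes described below: it held no count of Cd68, Gsta1 or Ddit3, and its Ftl1 level, 2153 CPM, was the single RO-3306 value inside the control range. Results are therefore given with and without these 2 cells where a ratio named below moved by over 1.5 times or a list's count changed. The control cell D10 was the shallowest, at 59979 counts. In both groups the titles include a letter, A to D, whose meaning is not given. By letter there were 9, 2, 5 and 4 control and 3, 4, 4 and 2 RO-3306 cells, and the sign of a difference is treated as settled only where it was the same in all 4. A letter holds as few as 2 cells of a group, so a settled sign describes these cells and is not a test.

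The labelled cell type was checked against its markers. Of 10 alveolar type II markers, Sftpa1, Sftpc, Sftpd, Slc34a2 and Napsa had no count in any mitotic-low cell, and Sftpb, the surfactant protein B gene, had a count in 1 RO-3306 cell. Lpcat1, an enzyme of surfactant lipid synthesis, was the 1 marker measured, at 6.001 and 31.9 CPM in the control and RO-3306 sums. The epithelial keratins Krt8 and Krt18 had no count, while Vim, Sparc and Col1a1, genes of mesenchymal cells, were present in every cell. Other mesenchymal genes were not: of 37 on the mesenchymal and matrix list 7 had no count in either group, and Pdgfrb had none in RO-3306. Abca3, Lamp3 and Etv5 had low counts in both groups, at 0.859 and 3.69 CPM for Abca3, 0.311 and 0.112 CPM for Lamp3 and 0.407 and 0.468 CPM for Etv5. The alveolar type II list summed to at most 87.5 CPM in a control cell and 349 CPM in an RO-3306 cell, A11. The surfactant markers were thus at or near 0 in both groups, and the cells are called here by the line's name. Of 12 macrophage markers, Adgre1, Ptprc, Marco, Tyrobp and C1qa had no count in either group, and Csf1r and Itgam had none in RO-3306. Of the 3 measured, Cd68 and Cd14 were at least 2-fold higher and Lyz2 at least 2-fold lower. Cd14 was at 17.1 and 50.9 CPM and Lyz2 at 45.6 and 18.6 CPM, neither with a settled sign. The summed level of that list was 0 to 315 CPM in control cells and 0 to 747 CPM in RO-3306 cells, and Cd68 made most of it in RO-3306.

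Counts were summed over the cells of a group and scaled to CPM, and ratios are log2 of RO-3306 over control after adding 1 CPM to both. Genes whose 2 group values averaged 5 CPM or more count as measured. Of 9119 measured genes, 1669 (18.3%) were at least 2-fold higher and 2540 (27.9%) at least 2-fold lower in RO-3306 mitotic-low cells, and the median ratio was -0.17 (quartiles -1.14 and 0.65). At any fold, 1495 of the 9119 had the same sign in all 4 letters. By that sign rule the 2-fold counts were 509 (5.58%) higher and 482 (5.29%) lower. These shares are the background for the lists below, whose genes are counted by the same rule. No test across genes was possible with 1 sample a group. Intervals around a sum cover at most the counting error of reads. Reads without molecular identifiers are not independent molecules, so these intervals can be too narrow even for counting error. The ratio moved with the length of the mRNA. In the length decile with the shortest mRNAs (371 to 1255 nt) the median was 0.22, and in the decile with the longest (6614 to 123179 nt) it was -0.78. After subtraction of the median of genes of like length, 2029 genes were at least 2-fold higher and 1963 at least 2-fold lower. The subtraction centres each length decile at 0, so it cannot show whether length accounts for the excess of lower genes. Other scalings of the sums shift all ratios by 0.16 (TMM) or 0.17 (DESeq2 size factors), so a ratio smaller than that has no settled sign.

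**Figure D2:**
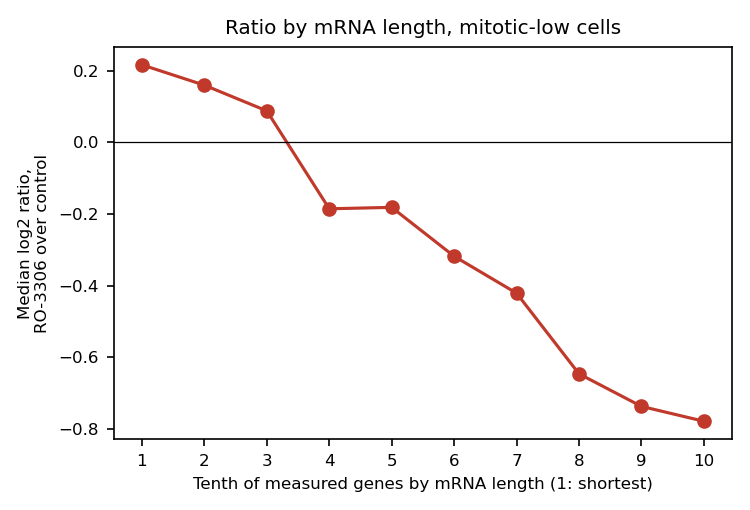
Median of the log2 ratios, RO-3306 over control, in mitotic-low cells (y axis) for deciles of the measured genes ordered by mRNA length (x axis, 1 is the shortest). The medians run from 0.22 in the first decile to -0.78 in the last.

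Of the pathway lists, lysosomal genes had the highest median. Lysosomes break down proteins, lipids and sugars with acid hydrolases, and the transcription factor TFEB and its relatives are known to switch on many of these genes through a short promoter motif, the CLEAR element. Of 31 measured lysosomal genes, 23 were at least 2-fold higher in RO-3306 and 0 at least 2-fold lower, 16 of the 23 with the same sign in all 4 letters. The median ratio was 1.41 (0.96 to 1.81 over the letters), against -0.17 over all genes, and 1.45 without A11 and B3. The summed level of the list was 1665 CPM at the lowest, 5413 at the median and 8818 at the highest in control cells, and 1842, 11447 and 23102 CPM in RO-3306 cells. In 9 of 13 RO-3306 cells the sum lay above every control cell.

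The promoters of some of these genes are shown because they hold the CLEAR element, searched as the letters TCACGTGA, which read the same on both strands. It was present in 5 of the 25 measured lysosomal genes with a promoter entry (20%): Ctsa, Ctsd, Gla, Mcoln1 and Atp6v0d1. Among 7367 measured genes with an entry 2.47% held it, and among all 27025 promoters 1.12%. Windows of 60 bases from RefSeq promoters (250 bases before to 50 after the start, GRCm38.p6) follow, read 5′ to 3′ on the gene's strand with the element in capitals.
Ctsd, chr7:142387893-142387952, minus strand: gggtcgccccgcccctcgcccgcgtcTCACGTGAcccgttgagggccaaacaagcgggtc
Ctsa, chr2:164833713-164833772, plus strand: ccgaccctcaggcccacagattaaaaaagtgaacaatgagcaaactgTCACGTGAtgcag
Mcoln1, chr8:3500447-3500506, plus strand: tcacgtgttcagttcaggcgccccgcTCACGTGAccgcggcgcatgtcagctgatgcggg
Gla, chrX:134601167-134601226, minus strand: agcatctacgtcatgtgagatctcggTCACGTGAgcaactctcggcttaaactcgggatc
A match of letters is a description and does not show that a factor binds there. The same rule of level and fold was met by lysosomal genes with and without the element.

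All 5 genes with the element were at least 2-fold higher, as were 23 of the 31 measured lysosomal genes. Outside the list the element was present in genes of either direction. Examples are Anln (5.24, and 3.22 without A11 and B3), Bax (1.15), Calr (0.16), Myl12a (-0.16), Fen1 (-0.89) and Aars (-1.72). The 182 measured genes with the element were not counted by fold, and a link between element and ratio was not tested. Ctsd encodes cathepsin D, an aspartic protease. It was at 0 CPM in the lowest control cell, 148 at the median and 921 at the highest, and at 230, 512 and 1710 CPM in RO-3306 cells. The ranges overlap, yet every RO-3306 cell lay above the control median, and the sums were 201 and 806 CPM, a ratio of 2.00. Ctsa encodes cathepsin A, a carboxypeptidase that also protects other lysosomal enzymes. Its control cells ran from 0 through 0.839 to 839.8 CPM and its RO-3306 cells from 0 through 445 to 2016 CPM, with sums of 128 and 639 CPM and a ratio of 2.31. Mcoln1, the calcium channel of the lysosomal membrane, was detected in 1 of 20 control and 8 of 13 treated cells (1 of 16 and 8 of 11 when thinned), with sums of 4.18 and 50.8 CPM. All its control counts came from 1 cell, D9, so the size of that ratio, 3.32, rests on it. Atp6v0d1, a subunit of the proton pump that acidifies the lysosome, had a ratio of 2.71 (5.95 and 44.5 CPM). Gla, which encodes alpha-galactosidase, had the smallest ratio of the 5, 1.08, and its sign differed in letter D.

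Other lysosomal enzymes and membrane proteins showed the same direction. Hexa, a subunit of the hexosaminidase that degrades gangliosides, had a median of 0 and a highest value of 129 CPM in control cells, and 0, 207 and 750.4 CPM as lowest, median and highest in RO-3306 cells. It was detected in 7 of 20 and 12 of 13 cells (7 of 16 and 11 of 11 when thinned), and 7 RO-3306 cells exceeded every control cell. Grn, the progranulin gene, ran from 0 through 22.9 to 447 CPM in control and from 0 through 416 to 1115 CPM in RO-3306. The membrane proteins Lamp1 and Lamp2 had ratios of 1.299 (0.04 in letter B) and 1.69, and the proteases Ctsb and Ctsl 1.41 and 1.20. Atp6v0c, another pump subunit, lay above every control cell in 10 of 13 RO-3306 cells, with medians of 236 and 652 CPM. Cd63, a tetraspanin of lysosomes and multivesicular bodies, just missed the fold at 0.96 (2143 and 4172 CPM). Below 0 were Lipa, the acid lipase, at -0.43 and Laptm4a, a lysosomal membrane protein, at -0.37, neither with a settled sign, and the hydrolase genes Gaa and Gusb at -0.13 and -0.09.

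Genes of autophagy, the route by which cytoplasm reaches the lysosome, were mixed. Of 17 measured, 7 were at least 2-fold higher and 2 at least 2-fold lower, against a background of 18.3% and 27.9%. The median was 0.33 with letters on both sides of 0. The 5 with a 2-fold difference and a settled sign were all higher, and were cargo receptors and members of the ATG8 family that coats the autophagosome membrane. Gabarap, an ATG8 protein, was at 81.0, 409 and 948 CPM in control cells (lowest, median, highest) and at 0, 1343 and 1913 CPM in RO-3306 cells. In 11 of 13 RO-3306 cells it exceeded every control cell. Gabarapl2 and Map1lc3b, of the same family, had ratios of 1.57 and 1.16. The receptors Sqstm1 (p62) and Optn had 1.54 and 1.22, while Calcoco1, a receptor for the reticulum and Golgi, was at -2.14 with a different sign in letter B.

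NRF2 is a transcription factor that switches on genes for iron storage, haem breakdown, glutathione and thioredoxin when cells meet electrophiles or oxidants. Of 22 measured genes of this list, 11 were at least 2-fold higher and 1 at least 2-fold lower in RO-3306. Of these, 7 higher and 1 lower had a settled sign, and the median was 0.93 (0.94 to 1.34 over the letters) with all cells and 0.96 without A11 and B3. The summed level of the list was 5207 CPM at the lowest, 13063 at the median and 17575 at the highest in control cells, against 9046, 41820 and 66167 CPM in RO-3306 cells. In 11 of 13 RO-3306 cells it lay above every control cell, and A11 held the lowest value.

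The ferritin genes made most of this sum. Ftl1, the light chain of ferritin, was at 1197, 3645 and 5320 CPM in control cells (lowest, median, highest) and at 2153, 19350 and 36096 CPM in RO-3306 cells. All RO-3306 cells but A11 lay above every control cell, and the sums of 3487 and 19104 CPM give a ratio of 2.45. Fth1, the heavy chain, had 1000.4, 3190 and 7244 CPM in control and 757, 11017 and 18682 CPM in RO-3306, a ratio of 1.79, and 9 of 13 RO-3306 cells exceeded every control cell. Ftl1 has many processed copies in the mouse genome and 98% of the cells with a count had a fractional one, which marks reads shared between sites, so its level is uncertain while the shared reads are treated alike in both groups. Hmox1, the haem oxygenase that frees iron from haem, had medians of 0 and 145 CPM, highest values of 133 and 343 CPM, and sums of 21.1 and 145 CPM. Blvrb, a biliverdin reductase that acts downstream of haem oxygenase, ran from 0 through 80.4 to 366 CPM in control and from 37.3 through 425 to 762 CPM in RO-3306, where 10 of 13 cells lay above every control cell.

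Members for glutathione and NADPH differed less evenly. Gclc, the catalytic subunit of the enzyme that starts glutathione synthesis, had a ratio of 3.67 from sums of 7.71 and 110 CPM, but was lower in letter D and at -0.20 in mitotic-high cells. Gclm, its partner subunit, was at 324 and 529 CPM (0.70), and Prdx1, a peroxiredoxin, at 2491 and 4403 CPM (0.82, the same sign in every letter). Txnrd1, a thioredoxin reductase, was at 0.42 without a settled sign. Nqo1, a quinone reductase often read as the marker of this pathway, had a ratio of 1.58, yet 90% of its control counts came from cell C3, and with each cell weighted equally the ratio was -0.51. Pgd, an enzyme of the pentose phosphate pathway, was the 1 member at least 2-fold lower, at 59.98 and 21.6 CPM. Ephx1, an epoxide hydrolase, and Taldo1, of the pentose phosphate pathway, had ratios of 1.95 and 1.35.

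Glutathione S-transferases attach glutathione to drugs and other electrophiles. Of 18 measured, 10 were at least 2-fold higher in RO-3306 and 0 at least 2-fold lower, against 18.3% and 27.9% of all measured genes. Of the 10, 6 had a settled sign, and the list median was 1.21 (0.65 to 2.08 over the letters). Without A11 and B3, 11 were higher. The alpha class genes Gsta1, Gsta2 and Gm3776 had the largest ratios, 6.18, 6.26 and 6.19. Gsta1 had a count in 3 of 20 control and 11 of 13 treated cells (1 of 16 and 10 of 11 when thinned), with medians of 0 and 167 CPM and sums of 4.45 and 393 CPM. Of its control counts 94% came from cell D9, and 82% to 89% of the cells with a count of these 3 near-identical genes had a fractional one, so they cannot be told apart from one another. Gsta4, a form that acts on lipid peroxidation products, ran from 0 through 310 to 1427 CPM in control and from 0 through 1117 to 2252 CPM in RO-3306. Mgst1, a membrane-bound transferase, had medians of 409 and 1324 CPM, and 8 of 13 RO-3306 cells exceeded every control cell. Aldh3a1, an aldehyde dehydrogenase of the aryl hydrocarbon receptor (AhR) battery, was at 56.0 and 558 CPM with a negative sign in letter B. In the AhR list of 6 measured genes 2 were at least 2-fold higher and 1 lower, with a median of 0.41. Ahr itself had a count in 3 of 20 control and 0 of 13 treated cells, where 3 in 13 allows a share of cells with a count of up to 23.1%. Its summed control level, 49.9 CPM, was 519 times a floor of 3 counts over the RO-3306 group. With so few control cells behind the sum, this floor covers counting error only and sets no minimum for the difference.

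**Figure D3:**
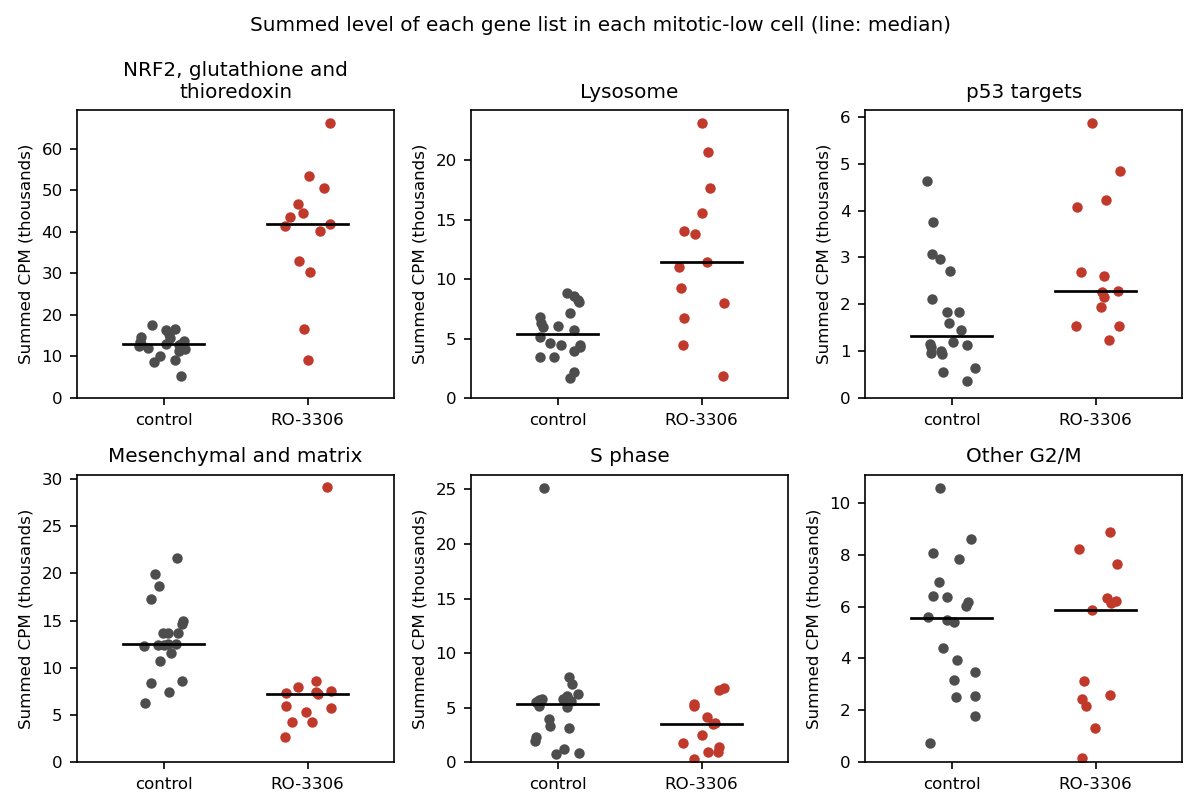
Summed CPM, in units of 1000 CPM (y axis), of 6 gene lists in each mitotic-low cell, by group (x axis). Points are cells and lines are medians. For the NRF2 and lysosome lists 11 and 9 of 13 RO-3306 cells lie above every control cell, while the S phase and other G2/M sums overlap.

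The tumour suppressor p53 switches on genes that halt the cell cycle or start cell death. Of 21 measured p53 targets, 12 were at least 2-fold higher in RO-3306 and 3 at least 2-fold lower. With a settled sign 7 were higher and 0 lower, and the median was 1.15, between 1.04 and 1.16 in each letter and 1.19 without A11 and B3. The median was 0.62 with cells weighted equally, 0.68 with cells thinned to equal depth and 0.72 in the lowest score tercile. The list was summed at 372, 1329 and 4626 CPM in control cells (lowest, median, highest) and at 1240, 2287 and 5863 CPM in RO-3306 cells. The ranges overlap widely, with 2 RO-3306 cells above every control cell and 12 above the control median.

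Cdkn1a encodes p21, which inhibits cyclin-dependent kinases. It was at 0, 6.48 and 403 CPM in control cells and at 1.94, 193 and 617 CPM in RO-3306 cells, with sums of 88.0 and 330 CPM (ratio 1.89). The control range covered most RO-3306 cells, and 1 control cell, D2, held 54% of the control counts. The difference was small in letter A, at 0.20, and larger in the others. Ccng1, cyclin G1, ran from 0 through 94.3 to 1171 CPM in control and from 15.5 through 485 to 2113 CPM in RO-3306 (ratio 1.84). Mdm2, the ligase that degrades p53, had sums of 86.7 and 253 CPM, and Phlda3, an inhibitor of AKT, had 132 and 351 CPM. Bax, which opens the mitochondrial outer membrane, was at 0, 183 and 574 CPM in control cells and at 3.88, 381 and 972 CPM in RO-3306 cells, a ratio of 1.15. Trp53inp1 had a ratio of 1.91, but nearly all its control counts came from cell A11. The 3 lower members were Btg2, Sesn2 and Xpc, at -2.53, -1.63 and -1.08. Of the control counts of Btg2, an antiproliferative gene, 99% came from cell A3, and its sign differed among the letters. Among the other CDK inhibitors measured, Cdkn2c, the p18 inhibitor of CDK4 and CDK6, was at 157 and 47 CPM (-1.72), with a negative sign in each letter. Cdkn2d had a ratio of 0.34, without a settled sign.

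In the BCL2 family, which decides whether mitochondria release death signals, 4 of 9 measured genes were at least 2-fold higher and 2 at least 2-fold lower (median 0.55). The shares over all measured genes were 18.3% and 27.9%. Bid, a death-promoting member, was at 79.2 and 205 CPM with a positive sign in each letter. Bcl2, a protector, was at 50.3 and 12.6 CPM with no settled sign.

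The integrated stress response slows translation and, through the factor ATF4, switches on genes for amino acid supply and, when prolonged, the factor CHOP. Its list as a whole lay near 0. Of 24 measured genes 5 were at least 2-fold higher and 4 at least 2-fold lower, against 18.3% and 27.9% of all measured genes. The median was -0.01. Within the list single genes differed widely. Ddit3, which encodes CHOP, was at 0, 30.3 and 747 CPM in control cells (lowest, median, highest) and at 0, 614 and 1016 CPM in RO-3306 cells, with sums of 58.6 and 615 CPM and a ratio of 3.37. In RO-3306 cells A11 alone had no count, and 12 of 13 lay above the control median. Atf3, a stress-induced factor, was at 2.32 and 43.9 CPM, detected in 2 of 20 and 7 of 13 cells (2 of 16 and 6 of 11 when thinned). Ppp1r15a, which restores translation, had 31.2 and 137 CPM, with ratios near 0 in letters A and D (0.21 and 0.29) and 48% of the RO-3306 counts in B3. Chac1, a glutathione-degrading enzyme induced by ATF4, had 72.8 and 149 CPM.

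Atf4 mRNA itself was at 1093 and 1166 CPM (0.09), with no settled sign, and Trib3, a pseudokinase target of ATF4 and CHOP, was at 276 and 455 CPM (0.72). Genes of amino acid supply and tRNA charging differed in both directions. Wars, tryptophanyl-tRNA synthetase, was at 3.54 and 31.6 CPM (2.84, positive in each letter). Asns, asparagine synthetase, had 444 and 356 CPM, and Gars, glycyl-tRNA synthetase, 309 and 308 CPM. Lower in every letter were Aars, alanyl-tRNA synthetase, at 181 and 54.4 CPM (-1.72), and Slc7a5, an amino acid transporter, at 47.5 and 11.3 CPM (-1.98). Atf5, a related factor, was at 31.2 and 3.53 CPM (-2.83). The 5 genes at least 2-fold higher were thus Ddit3, Atf3, Ppp1r15a, Chac1 and Wars, and the 4 lower ones Aars, Slc7a5, Atf5 and Sesn2.

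The promoters of these genes are shown because higher, level and lower members carry the same motif, the C/EBP-ATF response element that ATF4 and CHOP dimers can bind. It was searched on both strands as TGATGNAA, and 7 of 20 measured genes of the list with a promoter entry held it (35%), against 2.59% of 7367 measured genes and 4.51% of all promoters. In the windows below the element is in capitals, and TTGCATCA is the element read on the other strand.
Atf3, chr1:191183410-191183469, minus strand, ratio 3.76: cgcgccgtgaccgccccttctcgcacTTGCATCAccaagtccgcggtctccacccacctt
Chac1, chr2:119351023-119351082, plus strand, ratio 1.02: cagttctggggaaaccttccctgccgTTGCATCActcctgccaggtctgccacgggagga
Asns, chr6:7693210-7693269, minus strand, ratio -0.32: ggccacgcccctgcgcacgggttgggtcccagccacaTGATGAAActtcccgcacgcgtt
Aars, chr8:111033704-111033763, plus strand, ratio -1.72: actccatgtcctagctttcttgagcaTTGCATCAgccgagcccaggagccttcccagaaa
Ddit3 was not among the 7 genes with a match in this window. The letters are a description and do not show binding.

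Chaperones of the endoplasmic reticulum are another stress readout tied to CHOP, and their relation to Ddit3 was not tested. Of 19 measured, 1 was at least 2-fold higher and 4 at least 2-fold lower, against a background of 18.3% and 27.9%. The median was -0.25, negative in each letter, against -0.17 over all genes. After subtraction of the median of genes of like length it was -0.02, and 3 were lower without A11 and B3. Hspa5 (BiP), the reticulum's main chaperone, was at 64.4 and 28.9 CPM (-1.13), although 81% of its gene span overlaps another span, whose shared reads go uncounted. Hsp90b1 (GRP94) was at 712 and 243 CPM (-1.54, without a settled sign) and Canx, the lectin chaperone calnexin, at 522 and 255 CPM (-1.03). Dnajb9, a BiP cofactor, was the 1 higher gene, at 15.04 and 48.4 CPM. Of 13 measured cytosolic heat shock chaperones 2 were at least 2-fold higher and 2 at least 2-fold lower (median -0.34). Hsp90ab1, a constitutive HSP90, was at 1558, 3087 and 6307 CPM in control cells and at 451, 1483 and 2474 CPM in RO-3306 cells, and 8 of 13 RO-3306 cells lay below every control cell. Cryab, a small heat shock protein, went the other way, at 0, 104 and 496 CPM in control and 250.3, 408 and 1817 CPM in RO-3306.

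**Figure D4:**
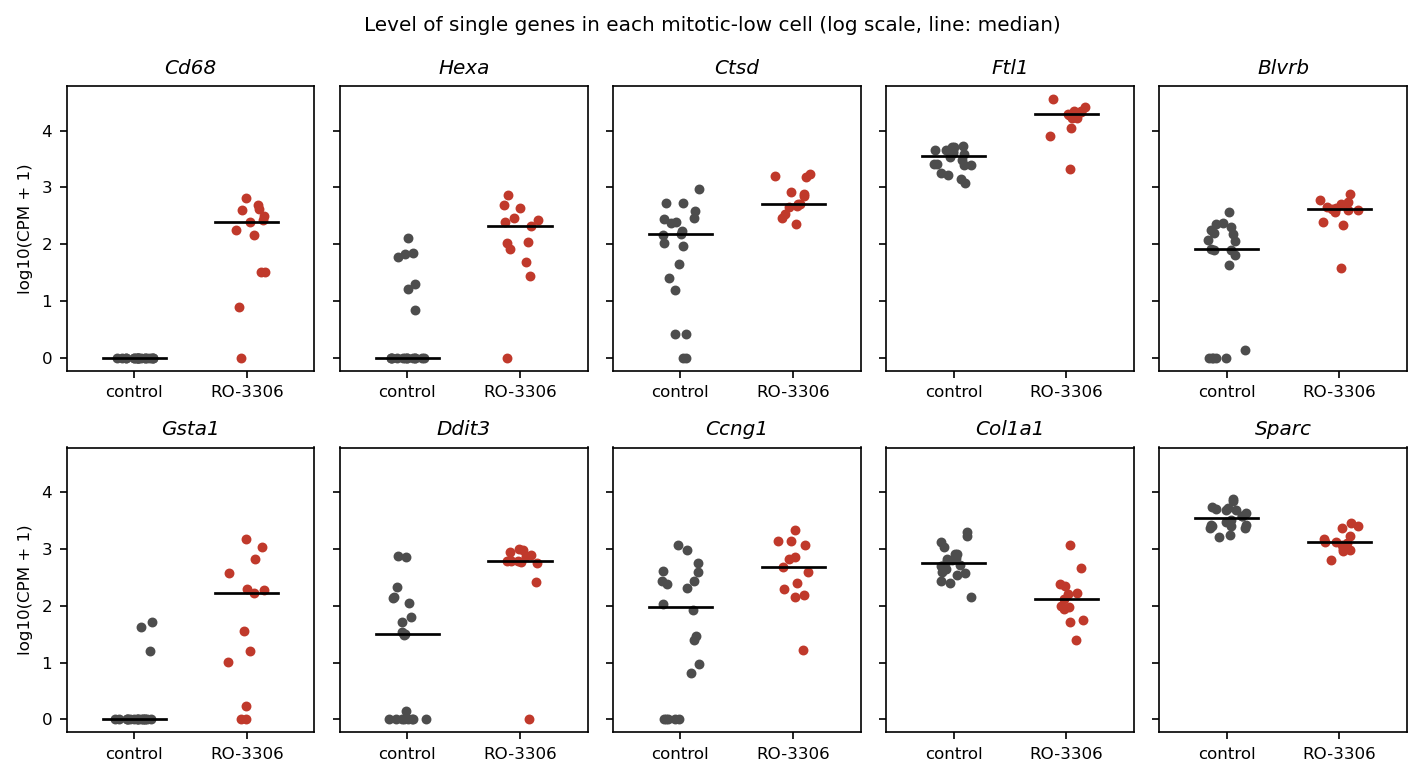
Level of 10 genes as log10 of CPM plus 1 (y axis, a log scale) in each mitotic-low cell, by group (x axis). Points are cells and lines are medians. No control cell has a count of Cd68, 12 of 13 RO-3306 cells exceed every control cell in Ftl1, and all 13 lie under the control median for Sparc.

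Genes of the extracellular matrix and of mesenchymal cells were lower. Of 26 measured, 1 was at least 2-fold higher and 14 at least 2-fold lower, 7 of the 14 with a settled sign, against a background of 27.9% lower. The median was -1.45 (-2.15 to -0.54 over the letters), and -1.72 with 17 at least 2-fold lower when A11 and B3 were left out. The summed level was 6324, 12546 and 21652 CPM in control cells (lowest, median, highest) and 2678, 7280 and 29128 CPM in RO-3306 cells. The highest RO-3306 value came from A11, and 6 RO-3306 cells lay below every control cell. The median mRNA of the list is 4792 nt long, and after subtraction of the median of genes of like length the list median was -0.90. It was -0.89 with cells weighted equally and -0.59 when genes of any level were included.

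Sparc, a collagen-binding matrix protein, was at 1616, 3534 and 7619 CPM in control cells and at 640, 1320 and 2837 CPM in RO-3306 cells. All 13 RO-3306 cells lay below the control median and 9 below every control cell, with a ratio of -1.58. Col1a1, a chain of type I collagen, was at 144, 562 and 1988 CPM in control and at 23.5, 131 and 1177 CPM in RO-3306, where A11 held the highest value. Its ratio was -2.22, and -2.45 without A11 and B3. Lox and Loxl2, which cross-link collagen, had ratios of -1.89 and -3.91, each negative in every letter. Col6a2, of type VI collagen, was at 44.03 and 0.0641 CPM, the latter from 2 counts in 1 cell, so its counting interval for the fold runs from 0.000176 to 0.00527. Pdgfrb, a receptor of mesenchymal cells, had counts in 5 of 20 control and 0 of 13 treated cells, without a settled sign. Its summed control level, 50.8 CPM, was 528 times a floor of 3 counts over the RO-3306 group. With so few control cells behind the sum, this floor covers counting error only and sets no minimum for the difference. Vim, the intermediate filament of mesenchymal cells, was at 2339 and 1205 CPM (-0.96).

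In some matrix genes the single cell A11 set the RO-3306 level. Thbs1, thrombospondin 1, was at 0, 263 and 1489 CPM in control and at 0, 0 and 943 CPM in RO-3306, and A11 held 58% of the RO-3306 counts. Its ratio was -4.12 with A11 and B3 and -5.29 without them, and letter A, which holds A11, had the opposite sign. For Col3a1, of type III collagen, the same values were -2.75 and -3.85, and for Fn1, fibronectin, -0.97 and -1.80. With each cell weighted equally Fn1 was at 0.51. Ccn1, an immediate target of growth and stretch signals, was at 402 and 47.3 CPM (-3.06, and -3.29 without them). Of the 26 genes 4 had a ratio above 0. They were Bgn and Col5a1, at 21.6 and 37.5 CPM and at 15.8 and 26.7 CPM, Dcn, decorin, at 782 and 824 CPM, and Col1a2, at 0.0249 and 14.8 CPM, where 97% of the RO-3306 counts came from cell B11. The ratio of Col5a1 was 0.72 with all cells and 0.04 without A11 and B3.

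Secreted factors and the cytoskeleton were examined beside the matrix. Cxcl12, a chemokine made by stromal cells, was at 46.3, 2830 and 7750 CPM in control cells and 0, 998 and 3388 CPM in RO-3306 cells (-1.20, negative in each letter). Igfbp4, which binds insulin-like growth factors, had a ratio of -1.15, and all 13 RO-3306 cells lay below its control median. Ccl2, a chemokine that attracts monocytes, was at 1898 and 3000 CPM without a settled sign. In that list of chemokines and secreted factors 2 of 12 measured were at least 2-fold higher and 3 lower (median 0.12). Of 22 measured actin and contractile genes, 0 were at least 2-fold higher and 4 lower, all 4 with a settled sign (median -0.28). Over all genes 27.9% were at least 2-fold lower, and 5.29% were so with a settled sign. Without A11 and B3, 7 of the 22 were lower. The 4 were Tln1 (talin, -2.81), Actn4 (an actinin, -1.44), Zyx (zyxin, -1.07) and Myh10 (a nonmuscle myosin, -5.67), with 62% of the control counts of Myh10 in cell A9.

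The cell cycle itself was described through genes outside the score. Of 42 other G2/M genes, 11 were at least 2-fold higher and 8 at least 2-fold lower, against a background of 18.3% and 27.9%. The median was 0.04, and the letters ran from -1.04 to 1.54. The summed level was 761, 5544 and 10555 CPM in control cells and 165, 5866 and 8878 CPM in RO-3306 cells, so the groups overlapped nearly in full. Cdk1, which encodes the kinase named above, was at 0, 204 and 1059 CPM in control and 0, 425 and 687 CPM in RO-3306, and both sums were 398 CPM. Psrc1, a spindle protein also known as a p53 target, was detected in 2 of 20 control and 11 of 13 RO-3306 cells (2 of 16 and 10 of 11 when thinned), with 19.2 and 74.5 CPM. Nearly all its control counts came from cell A3. Ckap2l, a spindle protein, was at 1.05 and 81.7 CPM, and Nusap1, which bundles microtubules, at 8.77 and 199 CPM, but the second was lower in letter A. Mki67, the proliferation marker Ki-67, was at 52.6 and 3.398 CPM, from 7 of 20 and 2 of 13 cells, and was higher in letter B. Among the 10 score genes, which the rule used, 2 were at least 2-fold higher and 1 lower, and none had a settled sign. Ccnb1, cyclin B1, was at 89.4 and 148 CPM, and Ube2c, a ubiquitin enzyme of mitotic exit, at 323 and 504 CPM.

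Of 43 measured S phase genes, 7 were at least 2-fold higher and 12 at least 2-fold lower, close to the background of 18.3% and 27.9%. The median was -0.53, negative in letters A and B and positive in C and D. After subtraction of the median of genes of like length it was -0.21. The summed level of the list was 780, 5338 and 25117 CPM in control cells and 286, 3533 and 6791 CPM in RO-3306 cells. The highest control value came from D10, the shallowest library, and the next control cell was at 7848 CPM. Mcm2 and Mcm5, subunits of the replicative helicase, were lower in every letter, at 176 and 68.0 CPM (-1.35) and at 162 and 75.6 CPM (-1.09). Mcm4, of the same ring, was at 257 and 78.9 CPM but higher in letter C. Pcna, the sliding clamp, was at 339 and 266 CPM. Chaf1b, a chromatin assembly factor, was higher in each letter, at 0, 0 and 366 CPM in control cells and 0, 258 and 516 CPM in RO-3306 cells. Clspn, a checkpoint adaptor, had 3 control counts against 58.7 CPM in RO-3306 and a counting interval for the fold of 269 to 3816, and A11 held 63% of its RO-3306 counts. Of 12 measured G1 genes 2 were at least 2-fold higher and 1 lower (median 0.13), and 1 was higher without A11 and B3. Ccnd1, cyclin D1, was at 52.1 and 135 CPM, higher in 3 letters, Cdk4 at 970 and 1066 CPM, and Cdk6 at 156 and 50.2 CPM with a negative sign in each letter.

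The genes with the largest ratios were taken by a fixed rule: an average of 50 CPM or more over both groups, detection in 50% or more of the cells on the higher side, and 1 direction throughout, in sums, in cell means, in cell medians and in each of the 4 letters. The 15 genes at each end are given. They were chosen by this contrast, so their values are a description. Summed per cell, the 15 highest were at 0, 164 and 944 CPM in control cells (lowest, median, highest) and at 1235, 3177 and 5414 CPM in RO-3306 cells. The median control cell had a count for 3 of the 15 and the median RO-3306 cell for 14.

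Cd68 (chr11:69555039-69556996, GRCm39), a glycoprotein of late endosomes and lysosomes used as a macrophage marker, led the list. It had no count in 20 control cells, where 3 in 20 allows a share of cells with a count of up to 15%, and a count in 12 of 13 RO-3306 cells (0 of 16 and 11 of 11 when thinned). RO-3306 cells held 0, 244 and 639 CPM, and the summed 304 CPM was 4071 times a floor of 3 counts over the control group. That floor covers counting error only and sets no minimum for the difference. The macrophage markers at 0 were given above. Renbp, which binds renin and acts on amino sugars, was at 13.98 and 221 CPM, and 11 of 13 RO-3306 cells exceeded every control cell. Cyp2c55, a cytochrome P450, was at 0, 0 and 519 CPM in control cells and 1.94, 623 and 1479 CPM in RO-3306 cells. Bnip3, a mitophagy receptor, was at 24.7 and 255 CPM, and Dcxr, a sugar and carbonyl reductase, at 15.99 and 164 CPM. Gsta1, Gsta2, Gm3776 and Ddit3, described above, were also among the 15. Hoatz, a gene of motile cilia, was at 0.0623 and 120 CPM with 2.5 control counts behind the first value, a counting interval for the fold of 669 to 19966 and 15% of its span overlapped by other genes. Gdpd1, a lysophospholipase D, was at 0.00822 CPM, less than 1 count, and 151 CPM. The unnamed transcripts A530046M15Rik, A230057D06Rik and 2310030G06Rik were also on the list. The first had no control count, and its RO-3306 sum was 1731 times the same floor, with the same limit.

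The 15 lowest were Ccdc88a, Mmgt1, Sema3a, Ptprf, Sh3bp5l, Acbd3, Syncrip, Ecpas, Ddx3x, Faf2, Tcf3, Socs5, Lsm14a, Sec24d and Smndc1. Summed per cell they were at 1052, 1953 and 14241 CPM in control cells and at 1.69, 217 and 967 CPM in RO-3306 cells. Sema3a, a secreted guidance cue, was at 0, 55.6 and 1396 CPM in control cells and at 0, 0 and 90.2 CPM in RO-3306 cells, with sums of 245 and 11.5 CPM (-4.30). Ddx3x, an X-linked RNA helicase, was at 252 and 21.7 CPM (-3.48), and -4.45 without A11 and B3, since A11 held 52% of the RO-3306 counts. Ccdc88a, an actin-binding signalling protein, was at 279 and 4.85 CPM (-5.58), of which A11 held 95%, and -7.82 without A11 and B3. Tcf3, a transcription factor of the E protein family, was at 188 and 17.4 CPM (-3.36). Lsm14a and Syncrip, which bind mRNA, and Smndc1, a splicing factor, had ratios of -3.30, -3.66 and -3.23. Control cell C3 held 34% to 39% of the control counts of those 3.

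The remaining lists follow, against the background of 18.3% of all measured genes higher and 27.9% lower. The 13 mitochondrially encoded genes had a median of 0.73, positive in each letter, with 2 at least 2-fold higher, and 0.52 with 1 higher when A11 and B3 were left out. Their share of all counts was 3.43% in the control sum and 5.43% in the RO-3306 sum. Of 36 measured nuclear genes of oxidative phosphorylation 0 were at least 2-fold higher and 2 lower (median 0.10). Of 39 ribosomal protein genes 0 passed the fold either way (median -0.23, negative in each letter), and of 31 proteasome genes 1 was higher and 1 lower (median -0.13). Of 15 measured cholesterol synthesis genes 1 was at least 2-fold higher and 6 lower, with a median of -0.86 that was 0 in 3 letters. Hmgcs1, an early enzyme of that pathway, was at 96.3 and 12.9 CPM (-2.81, negative in each letter). Of 17 glycolysis genes 3 were higher and 1 lower (median 0.44). Of 9 interferon and MHC class I genes 4 were higher and 1 lower, with a median of 0.99 that was positive in each letter and 0.28 with cells weighted equally. Bst2, which tethers budding viruses, was the 1 of those with a settled sign, at 14.1 and 34.8 CPM. Of 14 immediate early genes 1 was higher and 4 lower (median -0.10), and Fos and Egr1 had counts in 2 and 5 of 20 control and in 0 of 13 treated cells. Among 8 high mobility group genes, 9 tubulins and 7 housekeeping genes, 2 were lower and 1 higher, with medians of 0.17, -0.16 and -0.59. Of 3 CDK inhibitors measured 1 was higher and 1 lower.

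The mitotic-high cells, 9 control and 24 RO-3306, were set beside the mitotic-low cells, and the difference between the classes was not tested. Over the same 9119 genes their median ratio was -0.09. The lists that were higher in mitotic-low cells had medians of 0.74 (lysosome), 0.91 (NRF2), 1.22 (glutathione S-transferases) and 1.03 (p53 targets) in mitotic-high cells, and the matrix list had -1.71. The lysosome median was 1.41 in the low and 0.74 in the high cells, over genes kept by their level in low cells. Summed per cell, the list had medians of 5413 CPM (control) and 11447 CPM (RO-3306) in low cells. In high cells these medians were 5475 and 12217 CPM, so the sums do not show a larger difference in low cells. Hexa, Grn and Renbp had ratios of 1.47, 0.81 and 1.80 in the high cells. For other G2/M genes the medians were 0.04 in the low and -0.94 in the high cells. Of the 15 highest genes, Cd68, Gsta1, Gm3776, Gsta2 and Ddit3 had ratios of 3.05 to 8.50 in mitotic-high cells. Bnip3 was at 0.31 there, Gdpd1 at 1.31, A230057D06Rik at 1.29, A530046M15Rik at 1.09 and 2310030G06Rik at 0.92. Of the 15 lowest, Ptprf and Sh3bp5l were higher in the high cells, at 1.80 and 1.51, and Tcf3 was at 0.08.

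**Figure D5:**
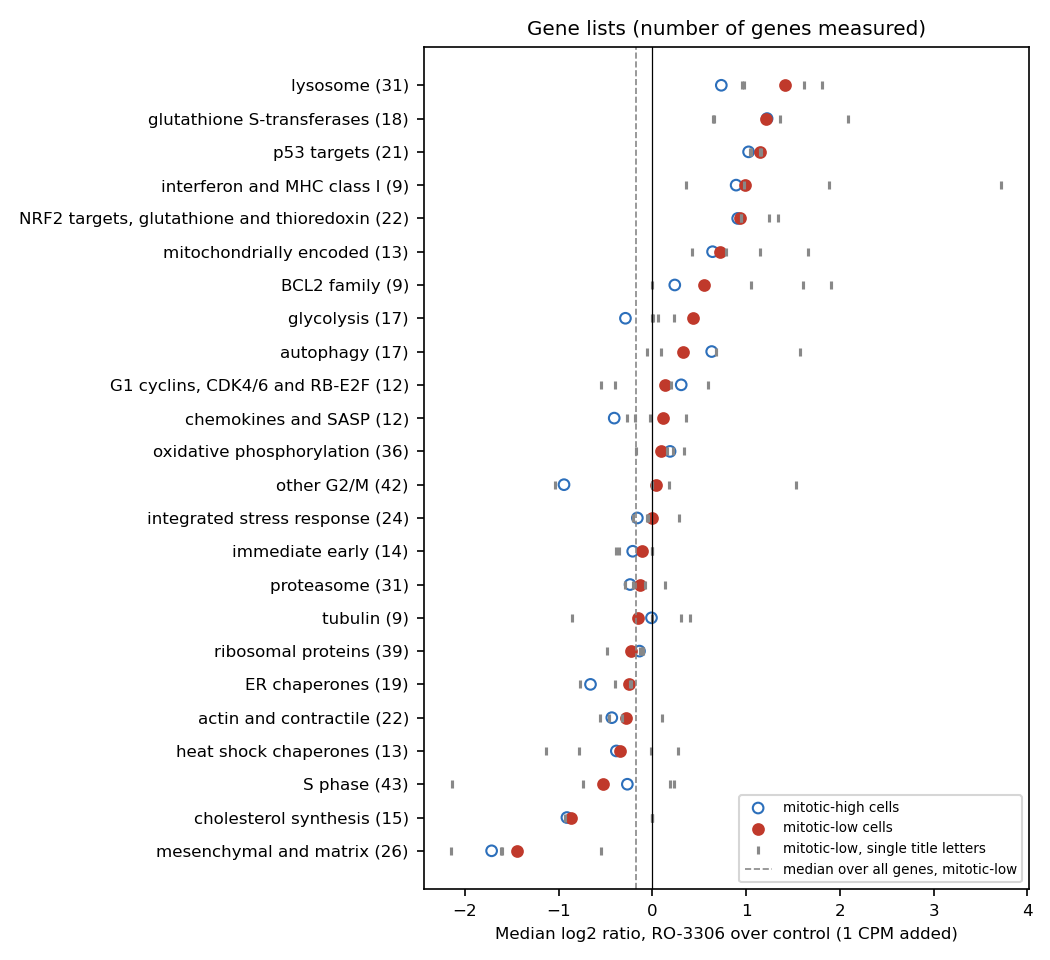
Median of the log2 ratios, RO-3306 over control (x axis), for each gene list with at least 9 measured genes (y axis, number measured in brackets). Filled points are mitotic-low cells, open points mitotic-high cells, ticks the 4 title letters of mitotic-low cells, and the dashed line the median of all measured genes. The lysosome list is at 1.41 and the matrix list at -1.45 in mitotic-low cells.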

How the data were processed

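The authors made expected counts per gene with featureCounts 2.0.3, per the file headers, over whole gene spans of the GRCm39 RefSeq annotation, introns included, with a read placed at several sites split into fractions. By the tool's defaults strand is ignored and reads over 2 spans are left out. FastQC and STAR are also named, per the submitters' processing notes. A count was called fractional when over 1e-06 from a whole number.

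Each file lists 40202 genes. Cells were not treated as replicates of the treatment, so no p-value was computed. Sums carry exact Poisson intervals and shares exact Clopper-Pearson intervals at 95%, for which counts were rounded. The share intervals take cells as independent draws within a group and are no test between the groups. Each library is 1 sorted cell, so no barcodes are shared and no doublet caller was run. A floor of 3 counts stands for a sum of 0, and a fold against it covers counting error only, not the spread between cells. A share of 0 is limited by 3 over the number of cells, and this limits cells with a count, not cells that express the gene.

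CPM, ratios (pseudocount 1 CPM), medians and thinning were computed with Python 3.11.15, numpy 2.4.6, pandas 2.3.3 and scipy 1.17.1, figures with matplotlib 3.10.9, and scaling factors with edgeR 4.0.16 and DESeq2 1.42.0 in R 4.3.3. mRNA lengths came by symbol from GENCODE M21 for 8574 genes. The scripts were tested on simulated data.

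Named genes were the 15 highest and 15 lowest by the rule in the report, up to 4 members of each list with the largest ratio and a mean of at least 20 CPM, the score genes and the markers. Other list members that are named were chosen after their values were seen. Mitotic-low cells and all lists were chosen with earlier results of these data known. Alternatives covered the pseudocount, weighting, scaling, filters, depth, the class limits and leaving out each cell or letter. Some members of the lists are counted but not reported by name here.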

Additional observations from a re-analysis of the deposited data

Results flagged for a closer look

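Libraries under the minimum of 50000 counts or 1000 genes entered no comparison. Summed over the 11 such RO-3306 libraries, the 15 genes with the highest ratios in mitotic-low cells held 635 CPM (exact Poisson 95% interval 590 to 682), against 7.33 CPM (0.710 to 21.2) over the 19 such control libraries. They had a count in 9 of the 11 and 2 of the 19 libraries. The RO-3306 library D4 gave most of these counts, and without it the sum was 144 CPM. These libraries were used in no choice of genes, and the control value rests on 2.5 counts.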

How the results depend on the processing

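Main values are 1669 genes higher, 2540 lower and list medians of 1.41 (lysosome), 0.93 (NRF2), 1.15 (p53), -0.01 (integrated stress response), -1.45 (matrix), -0.53 (S phase) and 0.04 (other G2/M). The lysosome, NRF2, p53 and matrix medians kept their sign under every alternative run, and the cause of the shifts was not tested. A mean of at least 50 CPM, which tests fewer genes, gave 363 higher, 611 lower, p53 1.23 and NRF2 1.08. No filter gave 2825 higher, 3494 lower, NRF2 0.81, matrix -0.59, S phase -0.42 and other G2/M 0.19. A pseudocount of 10 CPM gave lysosome 1.28, NRF2 0.74, p53 0.95 and matrix -1.01. TMM and DESeq2 scaling gave lysosome 1.57 and 1.58, NRF2 1.09 and 1.10, p53 1.31 and 1.32, stress response 0.15 and 0.16, S phase -0.37 and -0.36, and other G2/M 0.20 and 0.20, with 1903 higher and 2247 lower under DESeq2. Equal weight per cell, with measured genes redrawn on those means, gave lysosome 1.301, NRF2 0.61, p53 0.62, stress response -0.35, matrix -0.89 and other G2/M -0.20. Cells thinned to equal depth (16 control, 11 RO-3306) gave NRF2 0.80, p53 0.68, matrix -1.70, S phase -0.80 and other G2/M -0.26. Cells of at least 200000 counts and 3000 genes (17 and 13) gave stress response 0.094, matrix -1.76 and other G2/M -0.043. A limit at each group's own median (14 and 18 cells) gave lysosome 1.57, NRF2 0.72, p53 1.21, stress response 0.067, S phase -0.35 and other G2/M 0.33. The lowest score tercile (14 and 8) gave lysosome 1.22, NRF2 0.80, p53 0.72, S phase -1.003 and other G2/M -0.64, and Lamp1 reversed there, at -0.37. A score of the other G2/M genes (16 and 17) gave lysosome 1.26, p53 0.82, matrix -1.96, S phase -0.71 and other G2/M -0.25. Of 2 alternatives chosen after seeing the data, leaving out RO-3306 cells over 10% mitochondrial gave matrix -1.72, and subtracting the median of like mRNA length gave lysosome 1.53, NRF2 1.05, stress response 0.14, matrix -0.90, S phase -0.21 and other G2/M 0.33. Leaving out each cell or letter gave 1566 to 2219 higher, 2454 to 2733 lower, lysosome 1.15 to 1.67, NRF2 0.70 to 1.18, p53 0.79 to 1.22, stress response -0.15 to 0.059, matrix -1.9996 to -0.85, S phase -0.79 to -0.38 and other G2/M -0.25 to 0.27. No paired analysis was possible because each group is 1 sample and the numbers in the titles name no shared culture. Depth limits genes near 5 CPM, and with 20 and 13 cells a few cells can set a sum.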
